A study of Mus musculus with 27 samples.

Results

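The cytosolic ribosome is built from ribosomal RNA and a large set of small, mostly basic proteins, which are split between a small subunit that reads the messenger RNA and a large subunit that joins amino acids. Most of these proteins are needed in equal number, and their mRNAs usually begin with a run of pyrimidines, the 5′ terminal oligopyrimidine (TOP) tract, through which the mTOR pathway and Larp1 control their translation. Free Rpl5 and Rpl11 can also bind Mdm2, the ubiquitin ligase that restrains p53, so ribosome supply and the response to DNA damage are linked. In the mouse thyroid gland organoids measured here, the mRNAs of these proteins made up 7.66% to 10.8% of all counts in a library. After photon irradiation at 7 Gy nearly all of them lay lower than in non-irradiated organoids on both days measured, with a median log2 fold change of -0.18 at day 7 and -0.20 at day 11, while the paralog Rps27l went the other way at day 7.

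Members were rows of the count table with the symbol Rpl or Rps followed by digits and an optional a, x or l, with Rplp0 to Rplp2, Rpsa and Fau, without the Rps6k kinases and without symbols that hold a hyphen or -ps, which marks pseudogenes. Of 50559 rows in the table, 85 matched and 82 reached 10 counts over the 27 libraries, 49 of the large subunit and 33 of the small. The 3 rows left out were Rpl3l with 3 counts, Rpl39l with 1.86 and Rpl10l with 0, all paralogs known from muscle or testis. All 82 members passed the filter on low counts in every comparison. The symbol rule did not take Rps3a1, which is not analysed here, nor the paralogs Rpl22l1 and Rpl7l1, with means of 223 and 82.9 CPM (the count scaled to a library total of 1e+06). In the GENCODE annotation of GRCm39, 80 of the 82 were protein-coding genes, spread over 20 chromosomes, and Rpl6l and Rpl32l were listed as pseudogenes.

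Bulk RNA came from organoids grown out of thyroid cells of female C57BL/6 mice aged 8 to 12 weeks in Matrigel with EGF, FGF2, the kinase inhibitor Y27632 and B27. Cells were cultured for 5 days and then left at 0 Gy or given photons at 2, 4 or 7 Gy. Organoids were collected at day 5 (0 Gy) and at days 7 and 11 (0, 2, 4 and 7 Gy), which gave 9 groups of 3 libraries, 1 from each of the cultures mTG11, mTG12 and mTG14, so every irradiated group shared its cultures with its 0 Gy group. The labels name no transgene or deletion in any group. Total counts per library ran from 2528866 to 5723150, so that 3 counts corresponded to 0.524 to 1.19 CPM. Reads came from the 3′ ends of mRNAs (Smart3SEQ), so a count was not divided by length.

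The thyroid label rested on few counts. Of 10 thyroid markers, 7 reached 10 counts, and the list summed to between 35.8 and 145 CPM. Foxe1 (20.3 to 43.0 CPM) and Nkx2-1 (6.32 to 21.5 CPM) had counts in every library, and Duox2 ran from 0 to 93.8 CPM. Tg, the thyroid hormone precursor, had 0 to 16.7 CPM, and the iodide transporter Slc5a5 and the deiodinase Iyd were among those under the minimum. Basal and squamous keratinocyte markers summed to 6226 to 19367 CPM, endothelial markers to 0 to 1.46 CPM. In bulk RNA, fewer cells of a type and less RNA per cell cannot be told apart.

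Pyrimidine tracts at the start sites are shown first because they are the sequence feature most of these genes are known for. Each line gives the 30 bases around an annotated RefSeq start on GRCm39, 15 before it and 15 after, written 5′ to 3′ on the gene's strand. Rps27l has another annotated start, not printed, that holds no tract. Capitals mark a tract, searched as a C followed by at least 4 bases that are each C or T and beginning within 5 bases of the start. The genes printed are members described below, 6 with a tract and, under them, 3 in which no such tract lay at the annotated start.
Rps27 (chr3:90120941-90120970, minus strand): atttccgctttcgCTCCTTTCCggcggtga
Rps27l (chr9:66853353-66853382, plus strand): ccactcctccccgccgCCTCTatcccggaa
Rps6 (chr4:86775590-86775619, minus strand): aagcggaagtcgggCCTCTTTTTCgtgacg
Fau (chr19:6107962-6107991, plus strand): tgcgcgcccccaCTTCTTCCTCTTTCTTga
Rps2 (chr17:24939022-24939051, plus strand): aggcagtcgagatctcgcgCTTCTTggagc
Rplp2 (chr7:141027549-141027578, plus strand): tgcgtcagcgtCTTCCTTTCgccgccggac
Rpl5 (chr5:108048379-108048408, plus strand): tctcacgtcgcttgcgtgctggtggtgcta
Rplp0 (chr5:115697511-115697540, plus strand): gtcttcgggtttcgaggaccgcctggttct
Rpsa (chr9:119956817-119956846, plus strand): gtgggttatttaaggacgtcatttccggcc

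Of the 60 members found in the RefSeq promoter table, 30 (50.0%) held a tract at the annotated start, against 21.2% of 27025 promoters of all genes. The share was 17 of 36 in the large subunit and 13 of 24 in the small. Tracts also stood at the start of 4 of 10 other translation genes known for TOP mRNAs, 4 of 26 ribosome biogenesis genes and 17 of 69 mitochondrial ribosomal protein genes. A match is a description of the letters and no match says only that they are not in this window. After 7 Gy at day 7, 28 of the 30 members with a tract had a log2 fold change below 0 (median -0.19), as did 29 of the 30 without one (median -0.20).

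Levels of single members were limited by reads that could belong to several loci. A search of each member's coding sequence against the genome found at least 1 further copy for 70 of the 82 members, with a median of 3 and a maximum of 16 for Rpl21, at 268 loci of which 249 were annotated as pseudogenes. Rows of the table named as pseudogenes of members held counts equal to 22.9% of the members' own, and rows of all sequence copies 35.8%. For Rpl17 the pseudogene rows held 204% of its own counts, for Rps6 149%, for Rpl19 141%, for Rpl15 140%, for Rpl10 114% and for Rps27a 105%. The values were fractional in all 27 libraries for 48 members, as happens when a read is divided between loci, and in fewer libraries for members such as Rpl8 (12), Rps4l (12), Rpl4 (13) and Rpl36al (18). The 12 members without a copy included Rpl4, Rpl22, Rpl32, Rps4l, Rps15 and Rps27l. Levels below therefore describe rows of the table, and 2 members can be compared in level only as counts at the 3′ end.

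Among the most abundant members, the stalk protein Rplp1 had a mean of 2609 CPM over the 27 libraries and Rps24 one of 2031 CPM. At the low end stood Rps4l, a retained copy of the X-linked small-subunit gene Rps4x, at 23.5 CPM, then Rpl32l at 44.0 CPM and Rpl6l at 112 CPM. Rps4x itself had 701 CPM. Rpl6l and Rpl32l share 96.8% and 95.8% of their sequence with Rpl6 and Rpl32, so their counts are uncertain.

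Over the 9 groups, the members moved little. The distance between a member's highest and lowest group mean had a median of 0.40 on the log2 scale, against 0.66 for the 9441 genes with at least 10 CPM. It stayed under 0.5 for 63 of the 82 members, against 30.8% of those genes. Those genes were not matched to the members in level, and counting noise widens this distance at low levels. The part of level in the difference was not tested. Rps28, Rpl19 and Rpl27 moved least, by 0.11, 0.12 and 0.15. Rps27 moved most (0.97), followed by Rps4l (0.96), Rps2 (0.86), Rps27l (0.76) and Rpl5 (0.66). The group mean was lowest at 7 Gy on day 7 for 62 members, and highest at 0 Gy on day 11 for 39 and at 0 Gy on day 5 for 28.

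**Figure D1:**
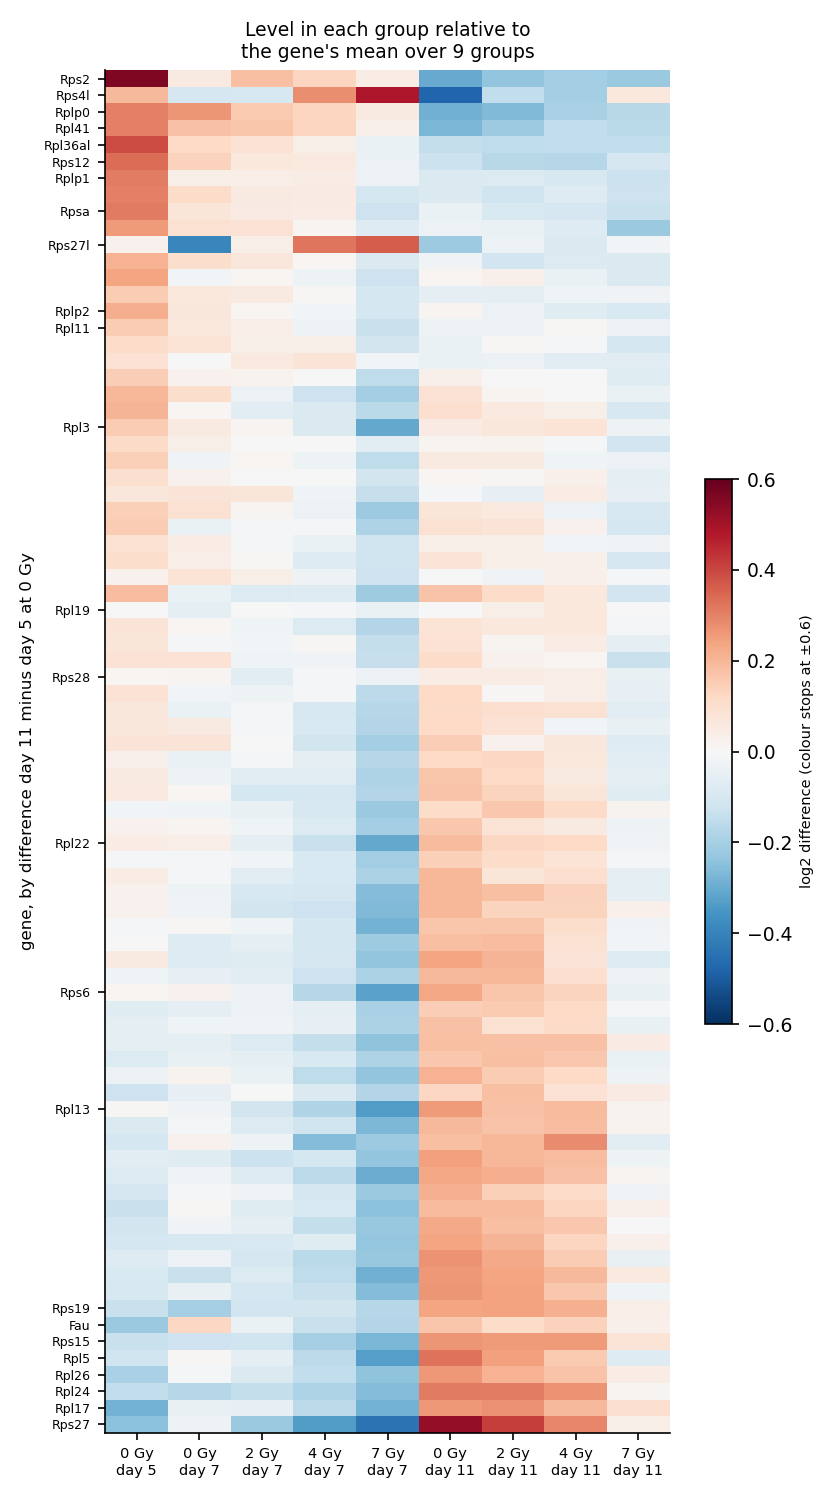
Mean log2 level of each of the 82 members (rows) in each of the 9 groups of 3 libraries (columns), after TMM scaling and relative to the gene's own mean over the 9 groups; rows are ordered by day 11 minus day 5 at 0 Gy, some of the genes named in the text are labelled, and colours stop at 0.6 in each direction. The column for 7 Gy at day 7 is the lowest group of 62 members.

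Members moved together across libraries. The Pearson correlation of a member with the mean of the others over the 27 libraries had a median of 0.82, as a description only, since the libraries share scaling and depth. It was below 0 for 4 members, Rps4l (-0.78), Rps27l (-0.33), Rplp0 (-0.07) and Rps2 (-0.01), which are named after their values were seen. Outside the members, the 5 genes with at least 10 CPM whose pattern was most like their mean were Rps27a-ps3 (r = 0.963), Gm20762 (0.959), Gm14586 (0.957), Rps16-ps2 (0.952) and Rps27a-ps2 (0.951). Of these 5 rows, 4 are annotated pseudogenes or sequence copies of members.

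The share of all counts taken by the 82 members was 10.0%, 10.3% and 10.2% at day 5 in cultures mTG11, mTG12 and mTG14 (10.2 ± 0.133, SD, n = 3). At day 7 without irradiation it was 8.51%, 9.26% and 9.26% in the same order (9.01 ± 0.433), and after 7 Gy 7.77%, 8.44% and 7.66% (7.96 ± 0.425). The 3 irradiated libraries of day 7 all lay below the 3 non-irradiated ones. At day 11 the share was 9.08%, 10.8% and 9.39% at 0 Gy (9.74 ± 0.897), and 8.08%, 9.28% and 8.93% at 7 Gy (8.76 ± 0.617), so these groups overlapped. Within each culture the 7 Gy library was lower, with differences from 0 Gy of -0.735, -0.813 and -1.61 percentage points at day 7 and of -0.996, -1.48 and -0.466 points at day 11. At 2 Gy and 4 Gy the mean shares were 8.98% and 8.83% at day 7, and 9.73% and 9.45% at day 11. The lower doses went both ways within cultures. At day 7 the difference from 0 Gy was -0.169, -0.182 and 0.256 points at 2 Gy and 0.368, -0.407 and -0.499 points at 4 Gy, in the order mTG11, mTG12 and mTG14. At day 11 it was -0.0436, -0.464 and 0.450 points at 2 Gy and -0.880, -0.229 and 0.232 points at 4 Gy.

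**Figure D2:**
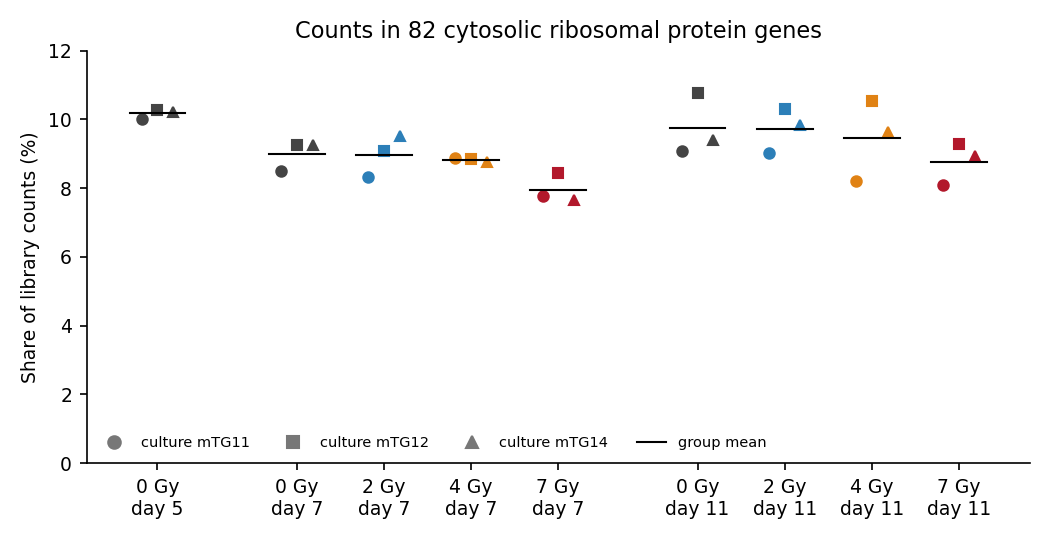
Share of each library's counts (percent) that fell on the 82 members, by day and dose; each point is a library, its shape the culture, and the bar the mean of 3. At day 7 the 7 Gy libraries lie between 7.66% and 8.44%, below every 0 Gy library of that day.

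Mitochondrial transcripts, which took 3.78% to 10.4% of counts, and Rn18s, with 2.44% to 10.2%, also varied between libraries. With mitochondrial counts taken out of the denominator, the mean shares were 9.71% at 0 Gy and 8.65% at 7 Gy for day 7, and 10.8% and 9.49% for day 11. The ratio of large-subunit to small-subunit counts stayed between 1.32 and 1.38 in all libraries.

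Growth without irradiation changed single members in both directions more than the whole. From day 5 to day 7, 4 of 82 members passed the test (edgeR quasi-likelihood, Benjamini-Hochberg adjusted p under 0.05), where 21.6% of the 18442 genes tested did. Of these 4, Fau rose, beside 12% of genes, and Rps2, Rps27l and Rpl36al fell, beside 9.62%. The call on Rpl36al was lost whichever of the 6 libraries was left out (adjusted p up to 0.119). With the culture as a replicate block 8 passed, 2 up and 6 down, and without mTG12 or mTG14 of either day 2 did. The share of all genes called with the block is not given here. The members' median log2 fold change was -0.03, that of all genes 0.04. From day 7 to day 11, 17 members passed beside 21.2% of all genes (median 0.14 against 0.00), 13 of them up (9.57% of genes) and 4 down (11.7% of genes). Without mTG14 of day 11 this count was 10, and without mTG12 of day 7 it was 11. From day 5 to day 11, 34 members (41.5%) passed beside 41.3% of all genes (median 0.09 against 0.06), 25 of them up (21.3% of genes) and 9 down (20.1% of genes). The comparisons share libraries. Unless stated otherwise, fold changes here and below are on TMM-scaled counts and CPM on plain totals, so the CPM printed need not give the same fold. In the fit of the days the TMM factors were 1.04 to 1.09 at day 5 and 0.935 to 0.987 at day 11. Plain library sizes in place of TMM factors moved the median of all genes to -0.11 over the first interval (members -0.18) and to -0.08 over the whole span (members -0.05). The members called over the whole span were then 10 up and 22 down, and over the first interval 0 up and 15 down. The shares of all genes called with plain library sizes are not given here, so these counts are not read as a result about the members.

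Rps2, a small-subunit protein near the mRNA entry channel, fell furthest with time. Its level was 1576, 1662 and 1629 CPM at day 5 (mTG11, mTG12 and mTG14), 1037, 1028 and 1058 CPM at day 7, and 754, 935 and 764 CPM at day 11. No library of one day overlapped with those of another. The log2 fold change was -0.49 at day 7 against day 5 (adjusted p = 0.00208) and -0.84 at day 11 against day 5 (adjusted p = 1.1e-05). As a limit, rows of its sequence copies held counts equal to 99.97% of its own.

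The stalk proteins Rplp0, Rplp1 and Rplp2 form the lateral arm of the large subunit that recruits elongation factors. Rplp0, its base, had 2125, 2135 and 2042 CPM at day 5, 1793, 1874 and 1925 CPM at day 7 and 1149, 1427 and 1250 CPM at day 11. Its log2 fold change was -0.55 from day 7 to day 11 (adjusted p = 0.00112) and -0.58 over the whole span (adjusted p = 0.00034). Rplp1 stood at 3354, 3611 and 3400 CPM at day 5 and at 2250, 2673 and 2280 CPM at day 11 (log2 fold change -0.38, adjusted p = 0.00372). The third stalk protein, Rplp2, went from 1968, 2029 and 2031 CPM to 1500, 1773 and 1525 CPM, and its log2 fold change of -0.18 did not pass the test.

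Rpl41, the smallest ribosomal protein, went from 2171, 2087 and 2119 CPM at day 5 to 1204, 1496 and 1223 CPM at day 11 (log2 fold change -0.56, adjusted p = 0.000958). Rps12 (-0.44), Rpl7a (-0.38), Rpsa (-0.34) and Rpl29 (-0.27) also fell over that span, with the call on Rpl29 kept in only 1 of 6 fits that left out a library. Rpsa, which doubles as a laminin receptor at the cell surface, had 1767, 1880 and 1851 CPM at day 5 and 1231, 1419 and 1287 CPM at day 11. Pseudogene rows held counts equal to 75.2% of those of Rpsa and 63.2% of those of Rps12. The paralog Rpl36al fell as well, from 385, 412 and 388 CPM to 238, 280 and 230 CPM (log2 fold change -0.52). Its ratio to Rpl36a, a sequence 87.7% identical to it, was 0.517 at day 5, 0.441 at day 7 and 0.315 at day 11.

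Among the 25 members that rose from day 5 to day 11, Rps27, a zinc finger protein of the small subunit, rose furthest. It had 971, 950 and 984 CPM at day 5, 973, 1068 and 1032 CPM at day 7 and 1380, 1713 and 1455 CPM at day 11. The day 11 libraries lay above all others without irradiation, with a log2 fold change of 0.79 against day 5 (adjusted p = 2.96e-05) and 0.56 against day 7 (adjusted p = 0.00107). Rpl17, at the peptide exit tunnel, rose from 1640, 1725 and 1801 CPM at day 5 to 2144, 2541 and 2196 CPM at day 11 (log2 fold change 0.56), with the limit that pseudogene rows hold more counts than its own row. Rpl24, at the interface between the subunits, had 763, 777 and 775 CPM at day 5, 629, 733 and 715 CPM at day 7 and 912, 1033 and 966 CPM at day 11. After TMM scaling it rose by 0.48 on the log2 scale against either earlier day. Rpl26, whose human ortholog is known to aid p53 translation, rose by 0.47 from day 5 to day 11, Rps15 by 0.41 and Rps19 by 0.38. From day 7 to day 11 Rps19, a protein of small-subunit maturation, rose by 0.43, and Rpl36 and Rps15 by 0.39 each.

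The pair of 5S particle proteins did not move alike. Rpl5 had 812, 830 and 814 CPM at day 5 and 927, 1139 and 992 CPM at day 11, a rise of 0.46 on the log2 scale (adjusted p = 0.00152). Its partner Rpl11 had 1218, 1296 and 1264 CPM at day 5 and 942, 1161 and 947 CPM at day 11, and the fold change of -0.16 did not pass the test. The difference between the pair was not tested. Fau, which is made as a fusion of a ubiquitin-like protein with Rps30, went from 1209, 1086 and 1163 CPM at day 5 to 1201, 1410 and 1403 CPM at day 7. Its log2 fold change was 0.37 from day 5 to day 7 (adjusted p = 0.0281) and 0.40 from day 5 to day 11 (adjusted p = 0.00942). The day 5 and day 7 values overlapped before TMM scaling and not after it. The call at day 7 was lost without TMM factors (log2 fold change 0.21, adjusted p = 0.133) and without mTG12 or mTG14 of either day (adjusted p up to 0.105), while that over the whole span was kept in all 9 alternatives and in all 6 fits that left out a library.

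**Figure D3:**
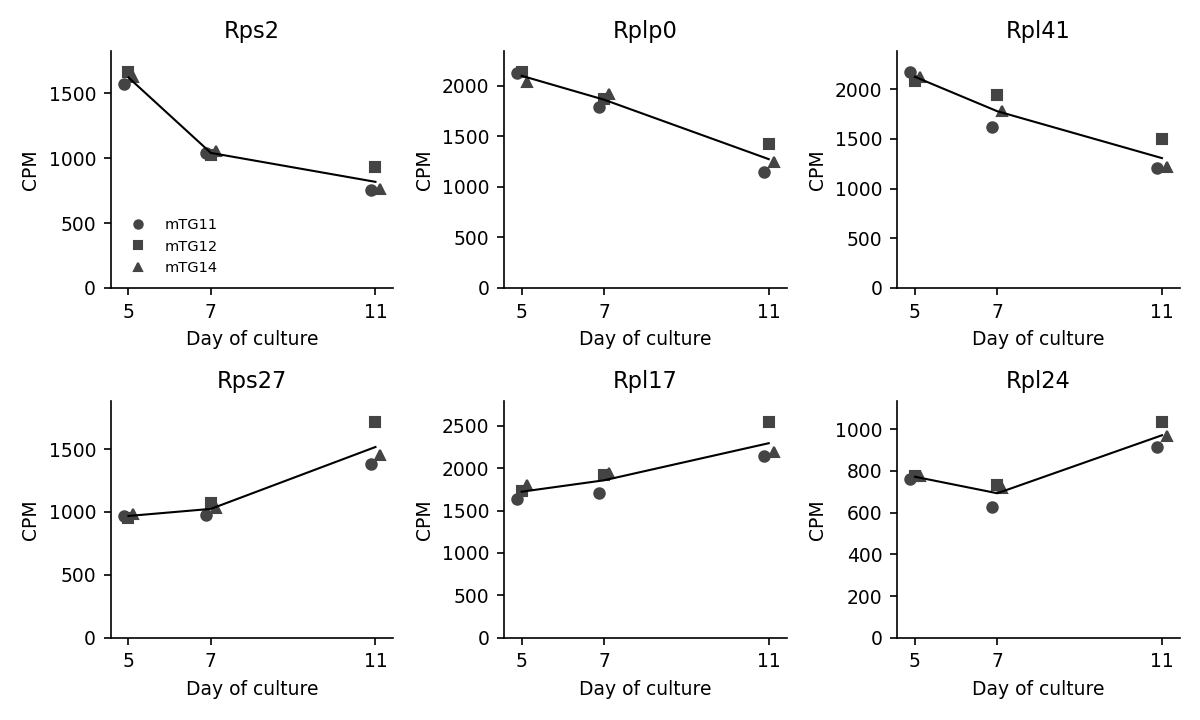
CPM of 6 members in non-irradiated organoids by day of culture, with the axis from 0; each point is a library, its shape the culture, and the line joins the means of 3. Rps2, Rplp0 and Rpl41 end lower at day 11 than at day 5, and Rps27, Rpl17 and Rpl24 higher.

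Of 30 ribosome biogenesis genes, 25 fell and 0 rose from day 5 to day 7 (median log2 fold change -0.86), and 25 fell and 0 rose from day 5 to day 11 (median -0.65). Ncl, the nucleolar protein nucleolin, had fold changes of -0.51 and -0.54, and Nop58, a core protein of the box C/D complexes that modify ribosomal RNA, of -0.89 and -0.62. Of 78 mitochondrial ribosomal protein genes, 43 fell and 1 rose from day 5 to day 11 (median -0.36). The 17 other translation genes with TOP mRNAs were split, 4 up and 4 down, with Tpt1 at 0.81 and Eef1g at -0.34. Among 14 controllers of ribosome production, 3 rose and 5 fell, including the TOP mRNA binding protein Larp1 (-0.46) and the Myc antagonist Mxi1 (1.22).

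All 18 proliferation genes fell from day 5 to day 11 (Mki67 with a log2 fold change of -3.19). Several marker lists also moved over that span without overlap. Basal and squamous markers summed to 15119 to 18999 CPM at day 5 and to 6231 to 8045 CPM at day 11. The general epithelial markers went the other way, from 890 to 1078 CPM to 1867 to 2656 CPM. Thyroid markers summed to 52.7 to 68.2 CPM and then 95.2 to 132 CPM, immune markers to 5.52 to 14.3 CPM and then 38.1 to 65.2 CPM, and markers of ciliated cells to 2.66 to 9.12 CPM and then 22.8 to 49.8 CPM. The part of these shifts in the changes of the ribosomal protein genes was not tested.

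Dose was compared with 0 Gy at day 7 first, and no trend over dose was tested. At 2 Gy, 0 members passed the test beside 0.124% of 19346 genes (1 member at an unadjusted p under 0.05, 0 by DESeq2), and 62 of 82 had a fold change below 0 (median -0.03), beside 49.5% of genes. At 4 Gy, 1 member passed beside 1.63% of genes, and 71 of 82 lay below 0 (median -0.08), beside 48.4% of genes. At 7 Gy, 9 members passed beside 6.95% of genes, 1 up (3.2% of genes) and 8 down (3.75% of genes), and 78 of 82 lay below 0 (median -0.18) where 49.2% of all genes did (median 0.01). All 3 irradiated libraries lay below all 3 non-irradiated ones (TMM-scaled CPM) for 42 members (51.2%), beside 13.1% of all genes. Within all 3 cultures 66 members (80.5%) were lower at 7 Gy, beside 20.9% of genes. The 4 members not below 0 were Rps27l, Rps4l, Rps19 (0.02) and Rpl19 (0.01), the last 3 not past the test. The 3 doses share the 0 Gy libraries. With plain library sizes in place of TMM factors, 45 members lay below 0 at 2 Gy, 52 at 4 Gy and 77 at 7 Gy.

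Rps27 changed furthest among the 8 that fell at 7 Gy. Its level at day 7 was 973, 1068 and 1032 CPM at 0 Gy, 910, 818 and 1022 CPM at 2 Gy, 883, 779 and 912 CPM at 4 Gy, and 743, 747 and 830 CPM at 7 Gy. The 4 Gy and 7 Gy libraries lay below all 0 Gy libraries, and those at 2 Gy overlapped with them. The log2 fold change was -0.41 at 7 Gy (SE 0.10, adjusted p = 0.0269).

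Rps6, the small-subunit protein that S6 kinase phosphorylates, had 392, 419 and 399 CPM at 0 Gy and 316, 334 and 303 CPM at 7 Gy (log2 fold change -0.35, adjusted p = 0.0125). Rpl3, which shapes the peptidyl transferase centre, had 960, 1049 and 1024 CPM at 0 Gy and 777, 837 and 758 CPM at 7 Gy (-0.36, adjusted p = 0.0104). In both genes the irradiated libraries lay clearly below the others. Rpl22 had 825, 1009 and 922 CPM at 0 Gy and 703, 773 and 694 CPM at 7 Gy (-0.36, adjusted p = 0.0293). The search found no copy of its coding sequence, and 1 row named as its pseudogene held counts equal to 3.67% of its own. The other 4 that fell were Rpl13 (-0.32), Rpl10 (-0.31), Rpl14 (-0.31) and Rpl37a (-0.29), with adjusted p from 0.0172 to 0.0486.

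The number of calls rested on single libraries and on the pairing. Without 0 Gy mTG11 the 7 Gy comparison at day 7 gave 16 calls, without 0 Gy mTG12 4 and without 0 Gy mTG14 1, and without the 7 Gy libraries of mTG11, mTG12 or mTG14 1, 3 and 4. Rps27l was called in all 6 of these, Rpl3 and Rps6 in 4, Rps27 and Rpl10 in 2 and the others in 1. With the culture as a replicate block, 24 members passed, 22 down and 2 up. Among those added were Fau (-0.31, adjusted p = 0.0139) and Rpl5 (-0.34, adjusted p = 0.00895), whose levels at 7 Gy were 1062, 1096 and 1105 CPM for Fau and 622, 665 and 653 CPM for Rpl5. At 4 Gy the block added Rps27 (-0.31, adjusted p = 0.0289). The shares of all genes called with the block are not given here.

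At day 11 the same direction held. At 7 Gy fewer members were called than at day 7 in the fit without the culture block, and more with it (31 against 24). Without the shares of all genes called with the block, that order of the days is not read as a result about the members. For 2 Gy and 4 Gy, 0 members passed with edgeR, with DESeq2 and at an unadjusted p under 0.05, where 0% and 0.00502% of 19901 genes were called. The fold change was below 0 for 66 members at 2 Gy (median -0.03) and 68 at 4 Gy (median -0.07), beside 51.4% and 51.2% of genes. With plain library sizes these counts were 38 and 64, so the direction at 2 Gy turned with the scaling, and at 7 Gy it was 73. At 7 Gy, 1 member passed beside 1.52% of genes, 77 of 82 lay below 0 (median -0.20) where 49.2% of all genes did (median 0.01), and for 45 members (54.9%) the 7 Gy libraries all lay below the 0 Gy libraries, beside 10.2% of genes. In all 3 cultures 68 members (82.9%) were lower, beside 20.1% of genes. The 5 members not below 0 were Rps4l (0.51), Rps27l (0.16), Rplp0 (0.08), Rpl41 (0.08) and Rps2 (0.04), none past the test. Over both days, 75 members had a fold change below 0 at 7 Gy on each and 2, Rps27l and Rps4l, above 0 on each.

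Rps27 was the member called at day 11. It had 1380, 1713 and 1455 CPM at 0 Gy, 1288, 1485 and 1486 CPM at 2 Gy, 1101, 1519 and 1265 CPM at 4 Gy, and 1000, 1083 and 1152 CPM at 7 Gy. Every 7 Gy library lay below every 0 Gy library (log2 fold change -0.53, SE 0.12, adjusted p = 0.0487), and the 2 Gy and 4 Gy libraries overlapped with 0 Gy. Leaving out any 1 of the 6 libraries, of 0 Gy or 7 Gy and of mTG11, mTG12 or mTG14, ended the call (adjusted p 0.0610 to 0.172). With the culture as a replicate block its adjusted p was 0.000594, and 31 members passed, all down, among them Rpl5 (-0.44, adjusted p = 0.00119). The share of all genes called in the fit with the block is not given here. Rpl5 had 927, 1139 and 992 CPM at 0 Gy and 725, 790 and 793 CPM at 7 Gy.

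**Figure D4:**
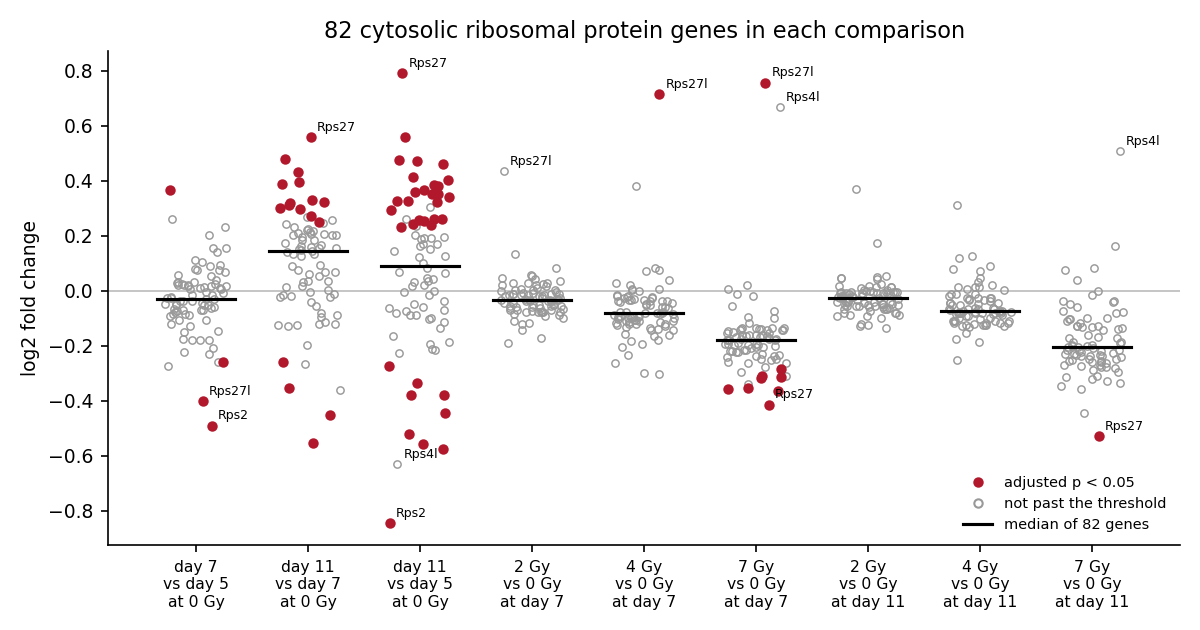
Log2 fold change of each of the 82 members in 9 comparisons, with filled points for an adjusted p under 0.05 (edgeR) and bars for the members' median. The 7 Gy comparisons have medians of -0.18 at day 7 and -0.20 at day 11, with Rps27l the highest point at day 7.

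The difference between the 7 Gy responses of the 2 days was tested as an interaction. With edgeR 0 members passed, beside 3.02% of 21928 genes (3 members at an unadjusted p under 0.05, 1 by DESeq2), and the members' median difference was 0.02, the same as for all genes. A p that misses the threshold does not show that the responses were equal.

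Rps27l (chr9:66853340-66856808, GRCm39, plus strand) departed from the rest. It is a paralog of Rps27 (chr3:90119819-90120977, minus strand) with 76.2% identity over 252 bases, is known as a p53 target, and has no sequence copy in the genome at the search limits used. Its level at day 7 was 201, 224 and 206 CPM at 0 Gy, 261, 327 and 278 CPM at 2 Gy, 404, 352 and 316 CPM at 4 Gy, and 371, 387 and 313 CPM at 7 Gy. Every irradiated library lay above every non-irradiated library of that day, and the 4 Gy and 7 Gy libraries overlapped. The log2 fold change was 0.43 at 2 Gy (adjusted p = 0.287), 0.72 at 4 Gy (SE 0.11, adjusted p = 0.00453) and 0.76 at 7 Gy (SE 0.11, adjusted p = 0.00114), a fold of 1.69 at 7 Gy. The calls at 4 Gy and 7 Gy were made in all 9 alternatives and with each of the 6 libraries left out in turn, and at 2 Gy it was called in 1 of 9, the fit without a filter on low counts (adjusted p = 0.0176).

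At day 11 the Rps27l rows stood at 232, 262 and 220 CPM without irradiation and at 271, 290 and 258 CPM after 7 Gy, with overlap between the groups (log2 fold change 0.16). The difference of the 7 Gy response between day 11 and day 7 was -0.56 (adjusted p = 0.0788), and with the culture as a replicate block the adjusted p was 0.0217. Before irradiation Rps27l had 321, 301 and 300 CPM at day 5, and it fell by 0.40 on the log2 scale to day 7 (adjusted p = 0.00747).

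The ratio of Rps27l to Rps27 counts shows both movements at once. At day 7 it averaged 0.205 at 0 Gy, 0.320 at 2 Gy, 0.419 at 4 Gy and 0.465 at 7 Gy, and at day 11 0.157, 0.194, 0.203 and 0.255. In the non-irradiated organoids of day 5 it averaged 0.318, close to the value for 2 Gy at day 7, so a ratio of that size was not particular to irradiated organoids. Rps27rt, a retrocopy of Rps27 outside the members (chr9:114811434-114811807, minus strand), kept a ratio to Rps27 of 0.231 to 0.251 in the 9 group means. Its reads and those of Rps27 may not be separable.

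**Figure D5:**
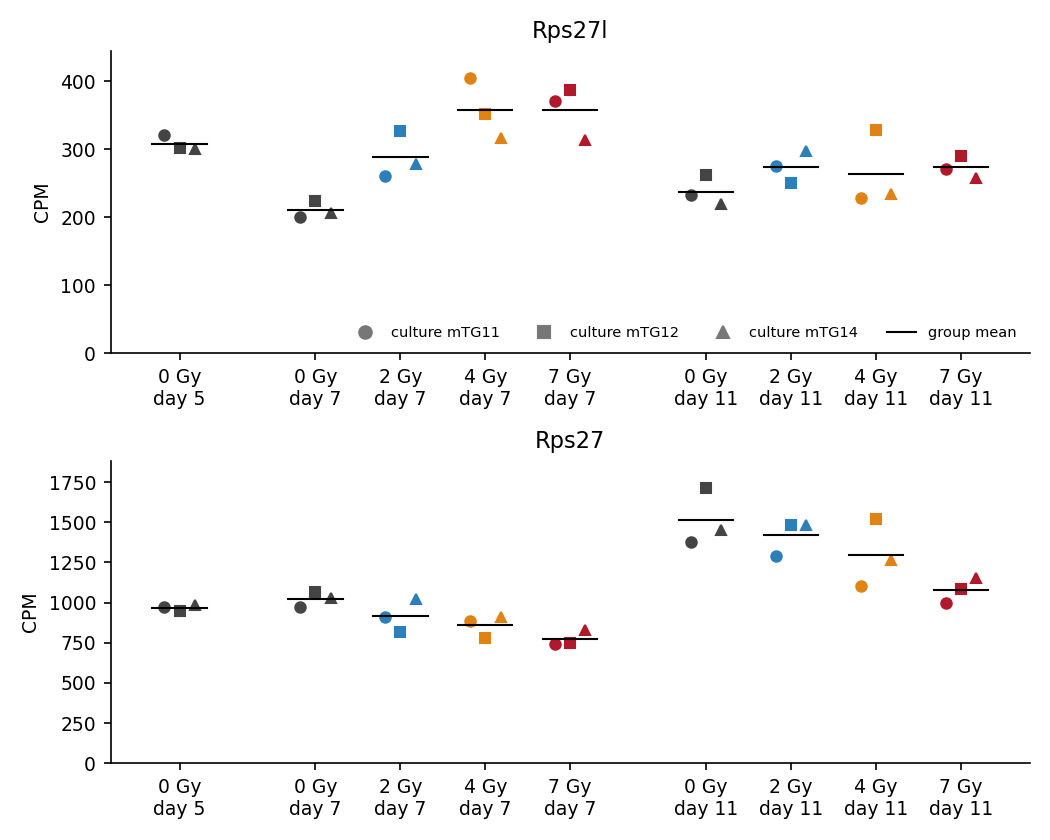
CPM of Rps27l (upper panel) and of Rps27 (lower panel) by day and dose with axes from 0; each point is a library, its shape the culture, and the bar the mean of 3. Rps27l at day 7 is between 201 and 224 at 0 Gy and between 261 and 404 in the irradiated libraries.

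Rps4l was the other member above 0 on both days. At day 7 it had 28.8, 17.8 and 15.7 CPM at 0 Gy and 51.1, 19.2 and 27.9 CPM at 7 Gy, higher within each culture but overlapping between groups (log2 fold change 0.67, adjusted p = 0.324). With the culture as a replicate block the log2 fold change was 0.64 (adjusted p = 0.0139). Culture mTG11 had the highest Rps4l level in 9 of 9 groups.

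After irradiation the p53 target list rose with Rps27l at day 7. Of its 14 genes, 6, 10 and 11 rose at day 7 after 2, 4 and 7 Gy, with Cdkn1a, the cell cycle inhibitor p21, at 0.72, 1.04 and 1.29 and Ccng1 at 1.12, 1.55 and 1.76. At day 11 after 7 Gy 0 of the 14 passed, and 10 of the 14 had a smaller response at day 11 than at day 7 by the test of that difference. The reference differed between the days. At 0 Gy the list summed to 722 to 787 CPM at day 7 and to 1081 to 1275 CPM at day 11. Over that step without irradiation Rps27l had a log2 fold change of 0.17 and did not pass the test. The part of p53 in the level of Rps27l was not tested.

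Genes of ribosome biogenesis did not share the lower levels at 7 Gy. At day 7, 7 of 30 rose and 0 fell (median 0.32), with Gnl3, the GTPase nucleostemin, at 0.46 and Rrn3, an initiation factor of RNA polymerase I, at 0.51. At day 11, 0 of 30 passed (median 0.07). Of the 14 controllers, Myc, a driver of ribosome production, rose by 0.45 at day 7 (adjusted p = 0.017), and 0 passed at day 11. Mitochondrial ribosomal protein genes had 1 of 78 up at day 7 (Mrpl16, 0.67; median of the list 0.09) and 0 at day 11 (median 0.01).

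The other TOP mRNAs lay lower with the members. All 17 had a fold change below 0 at day 7 (median -0.15), and 3 fell, among them Eif3f (-0.39) and Eif4b (-0.38), initiation factors. At day 11 16 of 17 lay below 0 (median -0.12), and Tpt1 (-0.49) and Eif3f (-0.57) fell. The list was drawn up with earlier results of these data known, so its direction is not independent evidence.

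Proliferation genes moved in opposite directions on the 2 days. Of 18, 7 fell at 7 Gy on day 7 (median -0.60) and 15 rose on day 11 (median 1.17), and all 18 differed between the days. Their summed level was 790 to 960 CPM at 0 Gy and 478 to 542 CPM at 7 Gy on day 7, and 236 to 259 CPM and 512 to 550 CPM on day 11. The markers of C cells, the calcitonin cells of the thyroid, summed to 18.3 to 39.2 CPM at 0 Gy and 77.2 to 89.9 CPM at 7 Gy on day 7, and to 3.02 to 5.95 CPM and 10.7 to 16.4 CPM on day 11. On day 11 markers of ciliated cells summed to 22.8 to 49.8 CPM at 0 Gy and 7.65 to 18.1 CPM at 7 Gy, and thyroid markers to 95.2 to 132 CPM and 78.0 to 89.8 CPM, both without overlap. The basal and squamous markers overlapped on day 11, with 6231 to 8045 CPM at 0 Gy and 7188 to 11423 CPM at 7 Gy. The part of these shifts in the lower ribosomal protein mRNA levels was not tested.

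Members with and without a found copy of the coding sequence had similar medians in the 7 Gy comparisons. Reads came from 3′ ends and the search covered coding sequence, so this split need not mark which members share reads. Rpl32, for which no copy was found, had fractional values in all 27 libraries. Of the 12 members without a copy, 10 lay below 0 at day 7 (median -0.17) and 10 at day 11 (median -0.21). Of the 70 with copies, 68 did at day 7 (median -0.19) and 67 at day 11 (median -0.20). With the counts of pseudogene rows added to their parents, 79 of 82 lay below 0 at day 7 and 77 at day 11.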

How the data were processed

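RNA of 27 organoid libraries was measured. The authors prepared 3′-end libraries (Smart3SEQ), and the submitters' processing notes name STAR, edgeR and GRCm39. The counting tool and any use of molecular identifiers are not given in the sources used here. The authors deposited estimated counts per gene symbol (56.3% of values above 0 were whole), where whole counts had been assumed; they were rounded for the tests. CPM was computed here on all counts of a library.

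Members and gene lists were chosen with earlier results of these data known. Groups came from the labels by day and dose. The study's methods give 3 different animals for these libraries, as do the labels, while the design text names 4; the culture names mTG11, mTG12 and mTG14 could not be matched to the labels' mouse numbers. Same-culture libraries deviated together (lowest r over pairs of groups 0.134, 0.237 and 0.286 in the 3 sets of libraries fitted), so the culture was used as a replicate block in an alternative. Replicates differed beyond counting noise (lowest chi-square per degree of freedom 3.39).

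Day comparisons were fitted on the 9 libraries at 0 Gy, doses on the 12 libraries of a day, and the interaction on the 24 libraries of days 7 and 11. The fits used edgeR 4.0.16 in R 4.3.3 (TMM, quasi-likelihood F test, Benjamini-Hochberg over all genes tested). Genes were tested if they had at least 10 counts over the libraries of the fit. Calls have an adjusted p under 0.05. On simulated counts for 7 Gy at day 7 (18907 genes, 200 changed 2-fold), 88% were recovered and 7.37% of calls were false. The changed genes had at least 10 CPM, and no culture effect was put in. Changes as small as those of most members were not simulated, so the 88% does not apply to them. Alternatives were DESeq2 1.42.0, no TMM, TMM without the members, no filter, the block, all 27 libraries, only the groups compared, each library left out, pseudogene rows added to their parents and, chosen after seeing the data, rows of all sequence copies added. Copies were found with blastn 2.17.0.

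Named with values were the stalk, 5S, ubiquitin-like and paralog members with their parents, Rpsa, up to 5 called members per comparison and direction with at least 10 CPM, the 3 highest and 3 lowest members, those nearest the count minimum, those with the fewest fractional values, and up to 2 called genes per list and direction. SEs are from the quasi-likelihood fit and so hold the spread between replicates, and ± values are SDs over 3 libraries. The CPM values given for 3 counts cover counting error only. No columns of the table were left unmatched. A few genes that this rule names are not reported here.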

Additional observations from a re-analysis of the deposited data

Results flagged for a closer look

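A test of the day 11 minus day 7 difference in the 7 Gy response passed for 2 ribosome-related genes and for the 4 abundant p53 and proliferation genes named by the rule for called genes. Rpl22l1, a paralog of Rpl22 outside the member rule, had a log2 response that was 0.60 higher at day 11 (edgeR, adjusted p = 0.00432); its level was 235, 272 and 266 CPM at 0 Gy and 232, 232 and 222 CPM at 7 Gy on day 7, and 147, 161 and 137 CPM and 190, 221 and 187 CPM on day 11. Rrp9, a ribosomal RNA processing factor, had a log2 response that was lower at day 11 (-1.18, adjusted p = 0.0111). Cdkn1a and Ccng1 responded less at day 11 (-1.13, adjusted p = 0.000288, and -1.41, adjusted p = 0.000346), and Top2a and Mki67 had the higher response there (1.87, adjusted p = 1.08e-05, and 3.07, adjusted p = 6.7e-06). No explanation was tested.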

How the results depend on the processing

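Of the 66 calls on members over all comparisons, 65 were made with DESeq2, 64 with TMM factors computed without the members, 64 with pseudogene rows added, 63 in 1 fit of all 27 libraries, 62 without the filter, 61 with all sequence copies added (chosen after seeing the data), 57 with only the groups compared, 46 without TMM factors and 66 with the replicate block; 0 reversed. For day 7 against day 5 the number of members called was 4, and 7 with DESeq2, 15 without TMM and 8 with the block. For 2 Gy at day 7 it was 0, and 1 without the filter. For 4 Gy at day 7 it was 1, and 2 without the filter and with the block. For 7 Gy at day 7 it was 9, and 18 with DESeq2, 14 without the filter and 24 with the block. For 7 Gy at day 11 it was 1, and 3 with DESeq2, 2 without the filter, 31 with the block, 4 in the fit of all libraries, and 0 without TMM, with TMM factors without the members and with all copies added. For the interaction it was 0, and 1 with DESeq2, without the filter, with the block and with only the groups compared. The block changed no other count by over 1.5 times. The causes were not tested. With each library left out in turn, the counts ran from 2 to 4 (day 7 against day 5; 2 without mTG12 or mTG14 of either day), 10 to 22 (day 11 against day 7; 11 without mTG12 of day 7 and 10 without mTG14 of day 11), 25 to 39 (day 11 against day 5), 1 to 1 (4 Gy, day 7) and 1 to 16 (7 Gy, day 7), and were 0 throughout for 2 Gy on both days, for 4 Gy and 7 Gy at day 11 and for the interaction. Shared reads, 3 libraries a group and 2528866 to 5723150 counts a library limit what single members can show.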
